A study of Homo sapiens with 132 samples.

Results

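The genes described here are the subunits of the RNA polymerases Pol I, Pol II and Pol III together with the factors that start Pol I transcription. They were chosen by name, with earlier results of these data known. There were 36 of them among the 65217 gene identifiers counted in each library. The 6 subunits of Pol I alone were POLR1A, POLR1B, POLR1E, CD3EAP (now POLR1G), TWISTNB (now POLR1F) and ZNRD1 (now POLR1H). Pol I and Pol III share the 2 subunits POLR1C and POLR1D, and all 3 polymerases share the 5 subunits POLR2E, POLR2F, POLR2H, POLR2K and POLR2L. The 7 subunits listed for Pol II alone were POLR2A, POLR2B, POLR2C, POLR2D, POLR2G, POLR2I and POLR2J. The 10 listed for Pol III alone were POLR3A, POLR3B, POLR3C, POLR3D, POLR3E, POLR3F, POLR3G, POLR3GL, POLR3K and CRCP. The 6 Pol I factors were UBTF, RRN3, TAF1A, TAF1B, TAF1C and TAF1D. POLR2H, CRCP and RRN3 were listed at 0 in every library although every dividing cell uses them, so no level is given for these, and the other 33 members passed the filter on low counts in each of the 4 cell lines.

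RNA sequencing was performed on 4 gastric cancer cell lines derived from metastases, MKN1, MKN7, N87 (NCI-N87) and Hs746T, in 44 groups of 3 replicates. Cells of all lines were left untreated or treated for 4 h or 24 h with trastuzumab (Tra, 5 μg/ml, an antibody to HER2), afatinib (Afa, 0.5 μM, a kinase inhibitor of EGFR and HER2) or trastuzumab + afatinib. MKN1 and Hs746T cells were also treated with EGF (5 ng/ml, a ligand of EGFR), cetuximab (Cet, 1 μg/ml, an antibody to EGFR) or EGF + cetuximab. The control cells were untreated and got no solvent, so afatinib and its solvent DMSO cannot be told apart. MKN1, MKN7 and N87 cells were grown in RPMI medium and Hs746T cells in DMEM, and each line stands for 1 tumour. Only polyadenylated RNA was captured, so that the products of Pol I and Pol III were not measured.

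Pol I transcribes the ribosomal RNA precursor, Pol II the messenger RNAs, and Pol III the transfer RNAs, the 5S ribosomal RNA and other short RNAs. Pol I starts when UBTF and the selectivity factor SL1, made of TBP with TAF1A, TAF1B, TAF1C and TAF1D, sit on the ribosomal DNA and recruit a polymerase that carries RRN3. Pol III carries either POLR3G or POLR3GL, copies of one subunit, and POLR3G is known for pluripotent and tumour cells. Growth factor signalling and the transcription factor MYC, which binds the E-box CACGTG, are known to raise the output of Pol I and Pol III.

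RefSeq promoters (250 bases before to 50 after the start, GRCh38.p14) were matched for 28 of the 36 members. None was matched for POLR1E, POLR2G, POLR2I, POLR2J, POLR2K, POLR3D, POLR3G and CRCP. Only the first listed promoter of a member was used, while the share of all was taken over every promoter listed. The E-box CACGTG lay in 4 of the 28 (14.3%) and in 7.26% of all 35116 promoters. The other motifs searched on both strands were the ETS motif CCGGAA, found in 15 member promoters (53.6%, against 17.2% of all), the GC box GGGCGG in 16 (57.1%, against 45% of all) and the NRF1 core CGCATGCG in 1, that of POLR2F (3.57%, against 2.02% of all). The 4 promoters printed are those in which the E-box was found. The capitals mark the E-box, whose first base was 12 bases before the start in CD3EAP, 1 before in POLR3E, 35 before in POLR3A and 196 before in POLR3C. A match is a description and not a binding site.
CD3EAP (chr19:45406394-45406693, plus strand): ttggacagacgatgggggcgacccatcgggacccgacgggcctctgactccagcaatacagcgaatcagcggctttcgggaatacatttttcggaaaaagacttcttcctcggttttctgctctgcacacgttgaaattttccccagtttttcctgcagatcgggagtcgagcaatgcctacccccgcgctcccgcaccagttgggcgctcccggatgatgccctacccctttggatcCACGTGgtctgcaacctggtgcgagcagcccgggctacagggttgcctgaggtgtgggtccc
POLR3E (chr16:22297159-22297458, plus strand): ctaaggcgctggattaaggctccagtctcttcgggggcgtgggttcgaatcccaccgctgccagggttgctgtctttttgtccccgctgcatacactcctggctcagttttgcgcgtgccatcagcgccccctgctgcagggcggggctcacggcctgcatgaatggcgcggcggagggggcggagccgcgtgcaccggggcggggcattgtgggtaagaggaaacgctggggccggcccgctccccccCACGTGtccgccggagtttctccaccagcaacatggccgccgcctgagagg
POLR3A (chr10:78029466-78029765, minus strand): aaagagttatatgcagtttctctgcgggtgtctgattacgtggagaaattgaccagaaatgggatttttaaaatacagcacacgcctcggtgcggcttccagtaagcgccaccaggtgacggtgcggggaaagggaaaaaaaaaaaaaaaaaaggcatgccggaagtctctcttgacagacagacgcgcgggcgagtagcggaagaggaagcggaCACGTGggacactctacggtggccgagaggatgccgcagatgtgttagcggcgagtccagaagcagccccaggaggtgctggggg
POLR3C (chr1:145823950-145824249, plus strand): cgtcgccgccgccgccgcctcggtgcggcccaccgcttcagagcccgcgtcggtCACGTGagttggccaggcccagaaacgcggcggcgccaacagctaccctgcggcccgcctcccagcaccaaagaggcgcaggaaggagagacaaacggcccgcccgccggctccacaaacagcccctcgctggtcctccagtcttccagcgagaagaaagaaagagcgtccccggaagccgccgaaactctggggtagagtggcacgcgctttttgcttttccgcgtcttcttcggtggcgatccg

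The libraries held 25832557 to 69434151 counts, and the members took 0.195% to 0.292% of them. The level that 3 counts give was 0.0432 to 0.116 CPM (a gene's share of the library's counts, TMM normalized), which covers counting error only. The epithelial markers summed to 4078 to 26086 CPM in N87, MKN7 and MKN1 libraries and to 439 to 743 CPM in Hs746T libraries. CDH1, which holds epithelial cells together, stood at 0.747 to 5.96 CPM in MKN1 and 0.383 to 6.14 CPM in Hs746T cells. Markers of endothelial cells and fibroblasts summed to 654 to 1054 CPM in Hs746T cells, with COL1A1 at 371 to 697 and PECAM1 at 80.0 to 277 CPM, and to 10.3 to 56.2 CPM in the other lines. Leukocyte markers summed to at most 9.18 CPM in any library. Exons of CD3EAP overlap those of ERCC1 on the opposite strand over 43.5% of their bases, those of POLR2I overlap TBCB over 32.9%, those of ZNRD1 overlap ZNRD1ASP over 24.5% and those of POLR2L overlap CD151 over 22.5%. Exons of POLR3GL share 21.2% of their bases with AC243547.3 on the same strand. The strand setting of the counting is not given in the sources used here, so the levels of these 5 genes are uncertain.

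Untreated cells of the 4 lines carried several members at different levels, and the order of the lines was not the same for each gene. POLR3G, which can replace POLR3GL in Pol III, was highest in N87 with 9.39 ± 1.31 CPM per kb of exon (mean ± SD, n = 6 libraries of both time points), followed by MKN7 with 7.25 ± 1.58, MKN1 with 3.50 ± 1.11 and Hs746T with 1.97 ± 0.182. The means of N87 and MKN7 cells, neighbours in that order, differed by less than the sum of their SDs, while those of MKN7 and MKN1 and of MKN1 and Hs746T cells differed by more. POLR3A, the largest subunit of Pol III, showed another order, with 19.4 ± 1.02 CPM per kb in Hs746T, 7.62 ± 0.318 in N87, 4.80 ± 0.418 in MKN7 and 3.88 ± 0.290 in MKN1 cells. POLR1B, the second largest subunit of Pol I, was at 27.0 ± 6.76 CPM per kb in MKN1 cells and at 7.49 ± 0.473 in Hs746T cells. POLR2A, the largest subunit of Pol II, was at 76.9 ± 2.24 in Hs746T, 69.0 ± 3.85 in N87, 46.0 ± 4.17 in MKN1 and 40.0 ± 3.16 in MKN7 cells. POLR2F was at 0.235 ± 0.0179 CPM per kb in N87 cells and lower in the other lines, far below the other shared subunits such as POLR2E with 25.5 ± 2.96, and whether this is its RNA level or its counting was not tested.

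**Figure D1:**
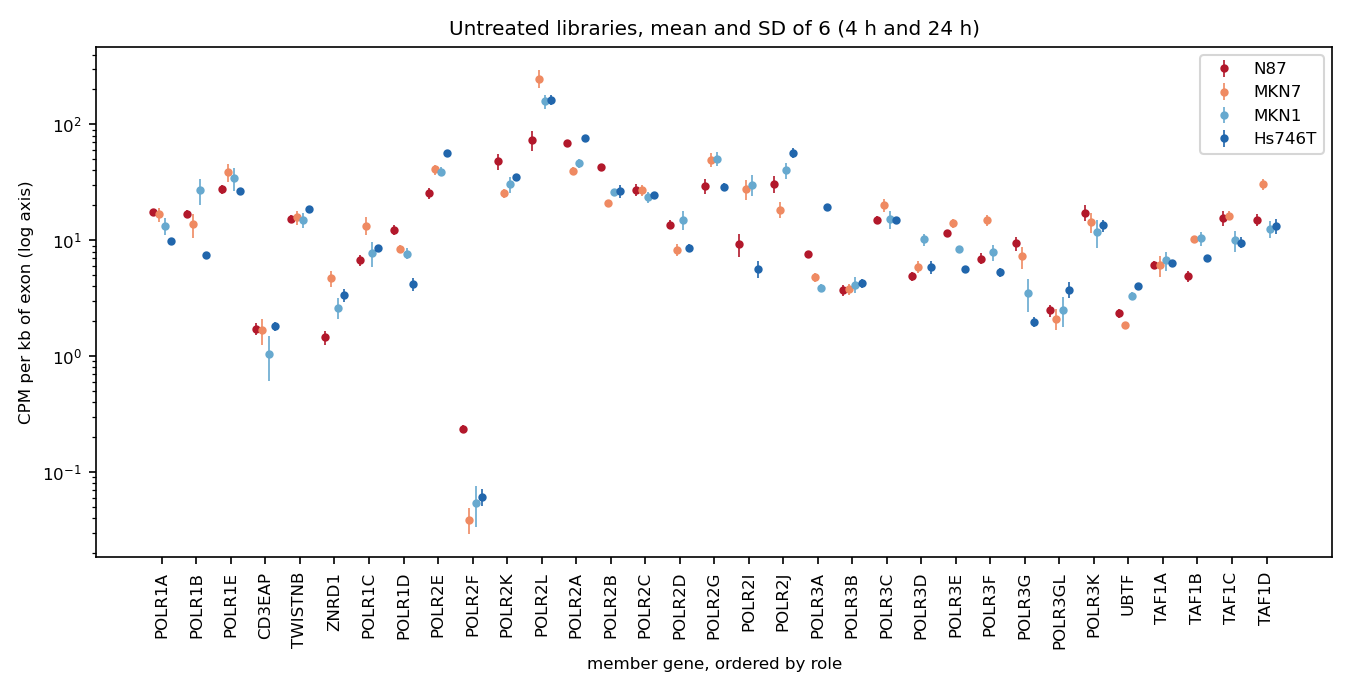
Levels of the 33 members tested in untreated cells, in CPM per kb of exon on a log axis (points and bars, mean ± SD of 6 libraries per cell line). POLR3A was higher in Hs746T cells than in the other lines, and POLR2F was below the other subunits in all 4 lines.

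Between lines, members were called different at an adjusted p below 0.05 (edgeR, Benjamini-Hochberg over all genes) with an absolute log2 difference above 1. Between N87 and MKN7 cells 8 members passed, where 44.4% of all genes tested did. For N87 against MKN1 there were 6 (45.9% of all genes), for N87 against Hs746T 9 (49.1%), for MKN7 against MKN1 3 (41.4%), for MKN7 against Hs746T 9 (45.9%) and for MKN1 against Hs746T 3 (47.8%). These shares of the 33 members lay below those of all genes. POLR3G was higher in N87 than in Hs746T cells by 2.25 ± 0.11 on the log2 scale (± SE), and POLR2I, a subunit that helps Pol II to proofread, was higher in MKN1 than in Hs746T cells by 2.40 ± 0.20. POLR3A was lower in MKN1 than in Hs746T cells, with a log2 difference of -2.32 ± 0.05.

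The members also moved with time in culture in 2 of the lines. From 4 h to 24 h without treatment, 14 members fell in MKN7 cells (16.4% of all genes changed in either direction), and 16 fell and 1 rose in MKN1 cells (34.1% of all genes). CD3EAP, which pairs with POLR1E on Pol I, led in both lines with a log2FC of -0.64 ± 0.14 and -1.06 ± 0.19, and POLR3GL was the member that rose in MKN1 cells, by 0.66 ± 0.17. In N87 cells 0 members passed edgeR's test (0.267% of all genes did) and in Hs746T cells 0 (1.48%), with 0 and 1 members at an unadjusted p below 0.05. Each treatment below is therefore set against untreated cells of the same time point.

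After 24 h of afatinib most members fell in N87 and MKN7 cells, among them members of all 6 roles, and fewer fell in MKN1 cells. In the fit without the replicate number as a block, UBTF and POLR1D were called in none of the lines, and no member was called in Hs746T cells. In N87 cells 13 of the 33 members fell after 4 h, where 9.10% of all genes fell and 9.06% rose, and 0 members rose. After 24 h 25 members fell and 2 rose, where 31.0% of all genes fell and 31.5% rose. In MKN7 cells 14 fell after 4 h (12.1% of all genes fell and 10.1% rose) and 0 rose, and 23 fell and 2 rose after 24 h (25.0% and 26.6% of all genes). In MKN1 cells 3 fell after 4 h (2.41% of all genes fell and 1.27% rose), and 14 fell and 1 rose after 24 h (13.3% and 12.2%). An absolute log2FC above 1 besides was reached by 4 members that fell in N87 cells at 4 h (1.22% of all genes fell that far), by 11 that fell and 1 that rose at 24 h (11.5% and 18.1% of all genes), by 2 that fell in MKN7 cells at 4 h (1.59%) and by 4 that fell and 1 that rose at 24 h (3.25% and 10.3%). The median log2FC over the members was -0.27 after 4 h and -0.72 after 24 h in N87, -0.20 and -0.32 in MKN7 and -0.13 and -0.24 in MKN1 cells, while the median over all genes tested lay between 0.01 and 0.04. With scaling by library size alone these medians were -0.20 and -0.47, -0.12 and -0.20, and -0.03 and -0.15. Fewer cells with a transcript and less of it per cell cannot be told apart in bulk RNA, and CPM are shares of each library.

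**Figure D2:**
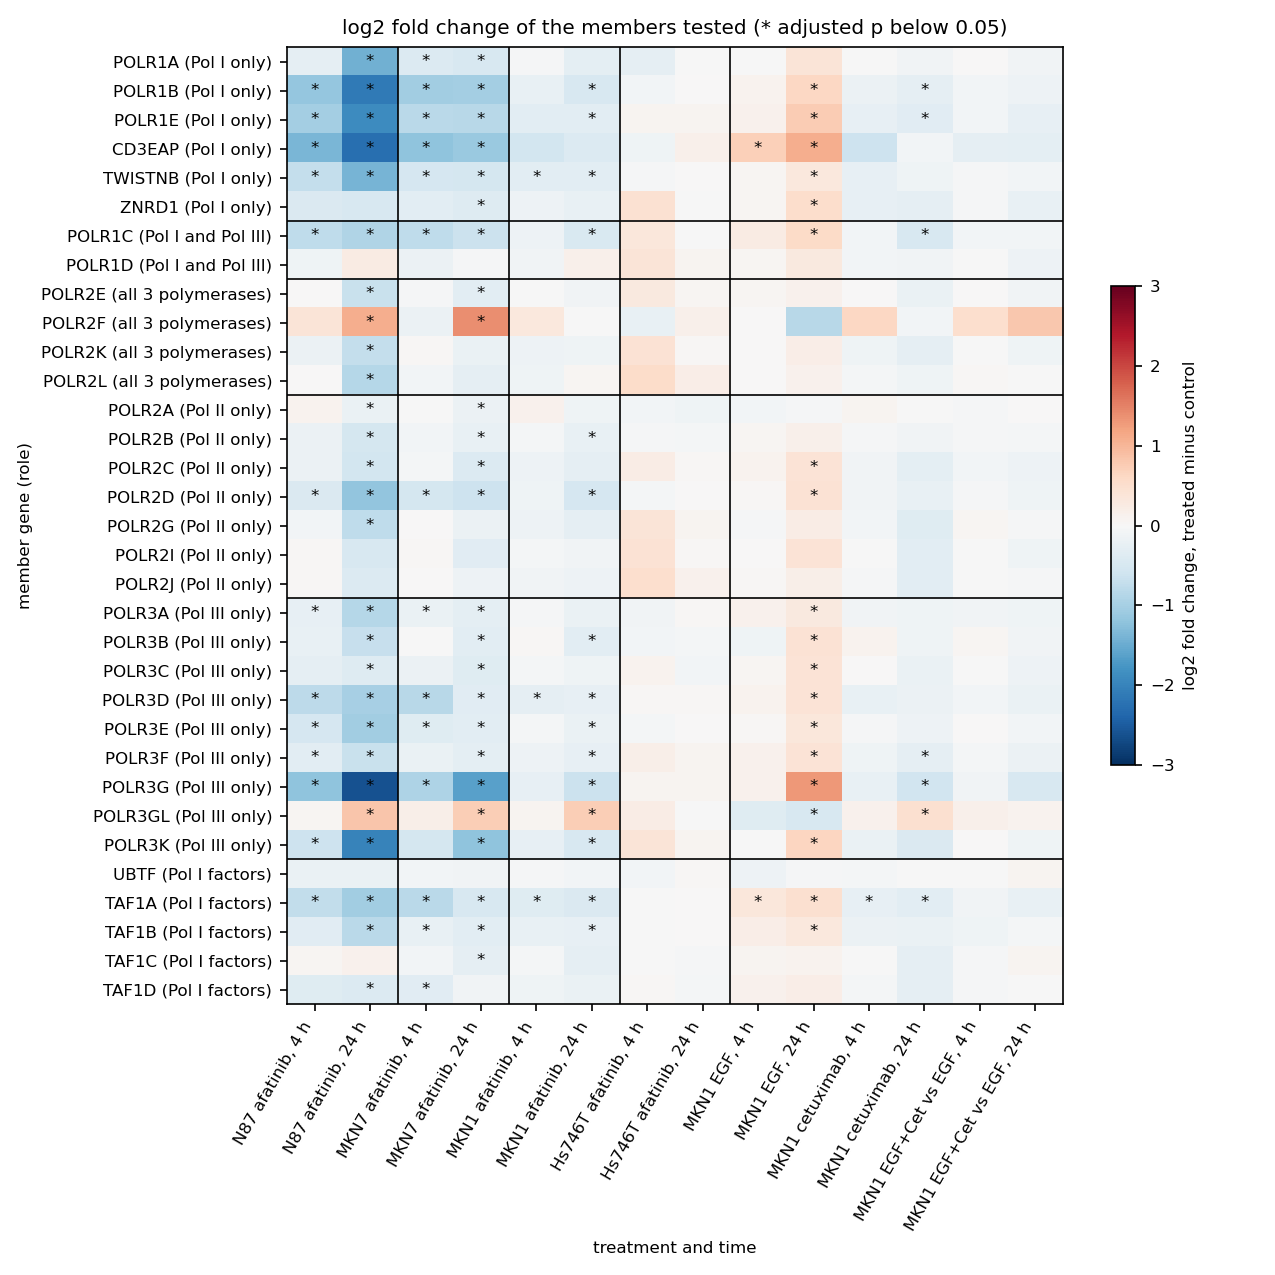
Log2FC of the 33 members tested (rows, grouped by role) in 14 comparisons (columns), where blue is lower and red is higher in treated cells and an asterisk marks an adjusted p below 0.05. Columns of N87 and MKN7 cells after afatinib are mostly blue, those of Hs746T cells hold no asterisk, and MKN1 cells after 24 h of EGF are mostly red with 18 members called higher.

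With the replicate number as a block, members called lower in N87 cells at 4 h numbered 21 in place of 13, where 16.6% of all genes were called lower. The block called 29 lower in N87 cells at 24 h (35.8% of all genes). In MKN7 cells it called 20 lower at 4 h (20.7%) and 28 at 24 h (30.6%). Scaling by library size alone moved the median of all genes from 0.03 to 0.29 in N87 and from 0.04 to 0.16 in MKN7 cells at 24 h, and from 0.01 to 0.10 in MKN1 cells at 4 h, so all log2FC here are relative to TMM normalization. In N87 cells at 24 h that scaling gave 22 members lower and 4 higher. Every library treated with afatinib lay below every untreated library for 27 members in N87 cells at 24 h, where this held for 32.9% of all genes, and above it for 3 members (34.5%).

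The subunits of Pol I alone carried the lowest median of all roles in N87 cells. At 24 h, 5 of its 6 subunits fell with a median over the 6 of -1.66, and at 4 h 4 fell with a median of -0.87. Of all genes 31.0% fell at 24 h and 9.10% at 4 h. POLR1B was at 98.2, 108 and 121 CPM in the 3 untreated libraries at 24 h and at 22.5, 26.8 and 26.0 CPM in the afatinib libraries. Its groups did not overlap, and the log2FC was -2.12 ± 0.09 (± SE; edgeR, adjusted p = 9.12e-14). CD3EAP went from 5.52, 6.82 and 7.70 to 1.36, 1.54 and 1.24 CPM. With a log2FC of -2.27 ± 0.16 (edgeR, adjusted p = 1.19e-10) it fell furthest of the Pol I subunits, at 7.70 CPM or less in every N87 library and with exons that ERCC1 overlaps. POLR1E, its partner near the initiation factors, went from 65.4, 66.1 and 77.8 to 18.3, 17.1 and 21.6 CPM, a log2FC of -1.88 ± 0.12, with no overlap. POLR1A, the largest subunit with the catalytic centre, was at 225, 263 and 263 CPM untreated and 85.5, 95.4 and 96.5 CPM with afatinib, and its log2FC was -1.44 ± 0.10. TWISTNB, the stalk subunit that meets RRN3, had a log2FC of -1.40 ± 0.13. ZNRD1, which cleaves stalled transcripts, had -0.47 ± 0.22 (edgeR, adjusted p = 0.0613, and 0.00671 with the replicate block).

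At 4 h the order of the Pol I subunits in N87 cells was much the same except for POLR1A. POLR1B was at 116, 106 and 114 CPM untreated and 49.0, 46.7 and 54.0 CPM with afatinib, a log2FC of -1.17 ± 0.09. CD3EAP had a log2FC of -1.38 ± 0.16, POLR1E of -1.03 ± 0.12 and TWISTNB of -0.71 ± 0.12, and all 3 passed the test. POLR1A was at 254, 233 and 223 CPM untreated and 202, 202 and 186 CPM with afatinib. These groups did not overlap, and the log2FC was -0.27 ± 0.10 (edgeR, adjusted p = 0.0601, and 0.00271 with the replicate block).

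In MKN7 cells the log2FC of the same subunits were closer to 0 at 24 h, and near those at 4 h. POLR1B was at 60.1, 63.0 and 75.8 CPM untreated and 29.9, 33.6 and 34.5 CPM after 24 h of afatinib, with a log2FC of -1.02 ± 0.10 after -1.04 ± 0.10 at 4 h. CD3EAP was at 4.32, 4.32 and 5.28 and 2.38, 1.84 and 2.22 CPM, with -1.11 ± 0.15 after -1.21 ± 0.14 at 4 h. Neither gene's groups overlapped at 24 h. POLR1E, with 73.8, 72.1 and 93.2 CPM untreated and 42.0, 42.9 and 49.1 CPM treated at 24 h, had a log2FC of -0.84 ± 0.10. POLR1A went from 185, 223 and 187 to 133, 149.8 and 142 CPM, and its log2FC of -0.49 ± 0.10 (edgeR, adjusted p = 0.000356) was smaller than in N87 cells. All 6 subunits were called lower at 24 h and 5 of the 6 at 4 h, where ZNRD1 had -0.31 ± 0.15. Of all genes 25.0% were called lower at 24 h and 12.1% at 4 h.

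**Figure D3:**
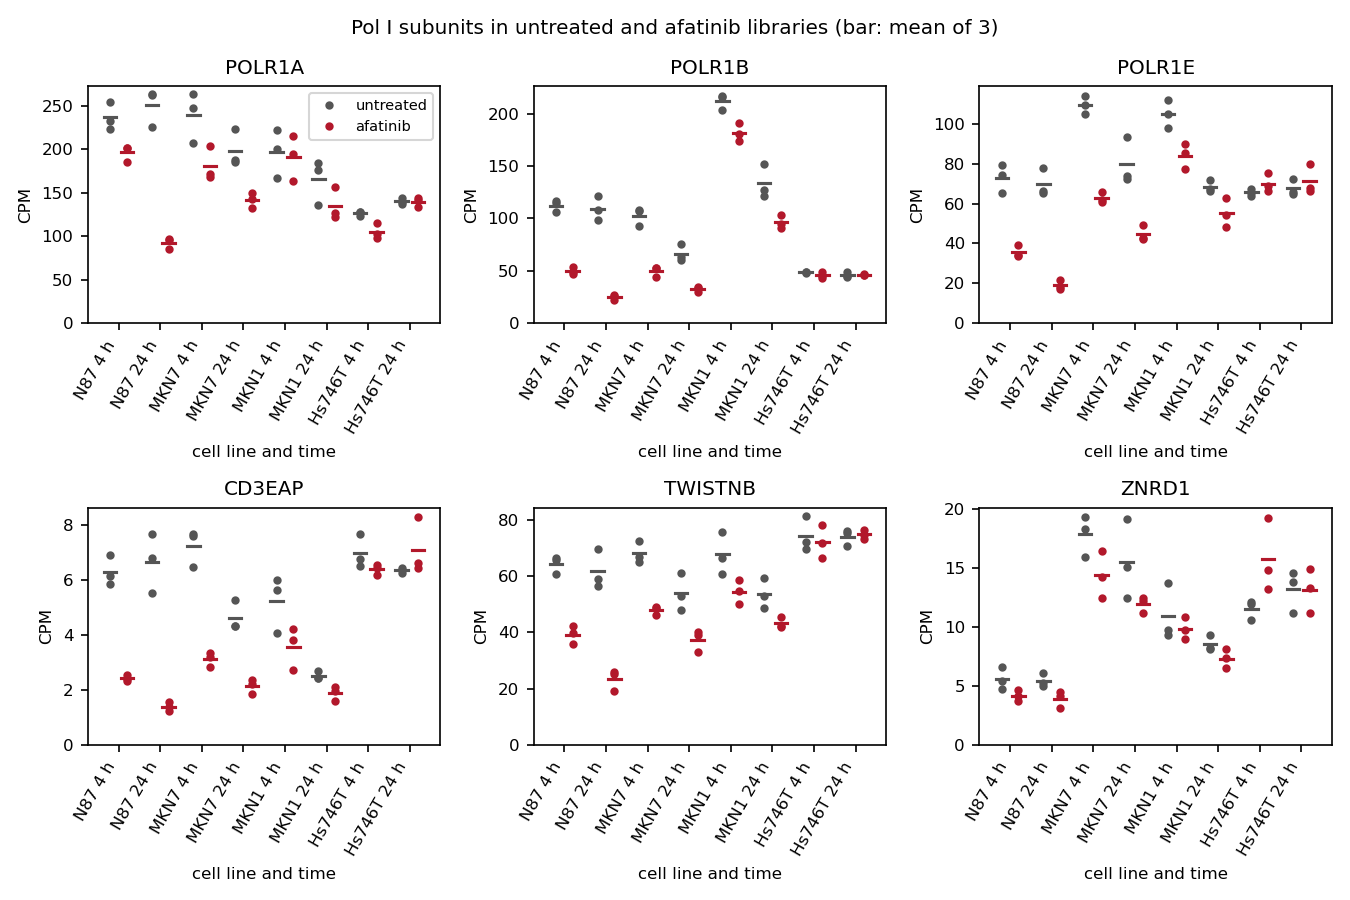
CPM of the 6 subunits of Pol I alone in each untreated (grey) and afatinib (red) library of the 4 lines at 4 h and 24 h, with a bar at the mean of 3. In N87 cells the groups of POLR1B, POLR1E, CD3EAP and TWISTNB lay apart at both times, and in Hs746T cells no subunit passed the test at either time.

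The subunits that polymerases share behaved differently from each other. POLR1C, which seeds the assembly of Pol I and Pol III, was at 44.8, 34.4 and 35.6 CPM untreated and 20.4, 18.4 and 22.4 CPM with afatinib in N87 cells at 24 h, with no overlap and a log2FC of -0.91 ± 0.15. It also fell at 4 h in N87 (-0.76) and at both times in MKN7 cells (-0.75 and -0.64). Its partner POLR1D did not pass the test in any line, with 0.25 in N87 and -0.05 in MKN7 cells at 24 h (adjusted p = 0.1004 in N87 cells by edgeR, and 0.00197 with the replicate block). With the block in edgeR, POLR1D was also called at 4 h. There it was lower in MKN7 cells (-0.18, adjusted p = 0.00592) and higher in Hs746T cells (0.38, adjusted p = 0.00275).

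Of the subunits common to all 3 polymerases, 0 of the 4 tested passed at 4 h in N87 or MKN7 cells, while 3 fell and 1 rose in N87 cells at 24 h. There 31.0% of all genes fell and 31.5% rose. POLR2L was at 88.1, 81.6 and 95.2 CPM untreated and 44.6, 43.5 and 57.1 CPM with afatinib in N87 cells, POLR2K at 84.5, 73.4 and 80.5 and 44.3, 41.3 and 59.1 CPM, and neither gene's groups overlapped. Their log2FC were -0.87 ± 0.22 and -0.72 ± 0.21, and that of POLR2E was -0.66 ± 0.14. In MKN7 cells POLR2E fell as well (-0.32 ± 0.10), and POLR2K and POLR2L did not pass the test, with -0.20 and -0.27 (adjusted p = 0.0215 and 0.00950 with the replicate block in edgeR). POLR2F was the exception, at 1.57, 1.76 and 1.90 CPM untreated and 3.84, 4.43 and 2.90 CPM with afatinib in N87 cells. It was at 0.267, 0.263 and 0.251 and 0.729, 0.746 and 0.582 CPM in MKN7 cells. All treated libraries were above all untreated ones in both lines, with log2FC of 1.10 ± 0.20 and 1.39 ± 0.35, but its counts were low and reached 7 in 1 library, and in MKN7 cells it was no longer tested when 10 counts in every library were asked for.

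The subunits of Pol II alone had a median nearer to 0 in N87 cells at 24 h than those of Pol I alone and of Pol III alone. It was further from 0 than the medians of the Pol I factors and of the subunits shared by Pol I and Pol III. POLR2A had the smallest change among the Pol II subunits there. In N87 cells at 24 h 5 of 7 subunits fell with a median of -0.53 over the 7, and at 4 h 1 fell. Of all genes 31.0% fell at 24 h and 9.10% at 4 h. POLR2A, which carries the C-terminal repeat domain, was at 532, 633 and 604 CPM untreated and 464, 525 and 548 CPM with afatinib. These groups overlapped, and the log2FC was -0.20 ± 0.08 (edgeR, adjusted p = 0.0391). With scaling by library size alone it was 0.056 beside a median of 0.29 over all genes, so its sign rests on the scaling. In MKN7 cells POLR2A was at 288, 301 and 308 and 274, 260.1 and 255 CPM, with a log2FC of -0.19 ± 0.06.

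POLR2D, which forms the stalk of Pol II with POLR2G, stood apart from the other subunits. Its level was 62.6, 73.0 and 84.3 CPM untreated and 28.1, 37.0 and 31.2 CPM with afatinib in N87 cells at 24 h, with no overlap. It was the member of this role called lower at 4 h in N87 (-0.44 ± 0.10) and MKN7 cells (-0.53 ± 0.09), and it had -1.19 ± 0.10 and -0.61 ± 0.09 at 24 h. With the replicate block POLR2B was called lower at 4 h as well, by -0.17 in N87 and -0.09 in MKN7 cells (edgeR, adjusted p = 0.00775 and 0.0498). POLR2G went from 56.6, 51.1 and 59.2 to 30.0, 28.96 and 38.9 CPM in N87 cells at 24 h, a log2FC of -0.77 ± 0.19, but had -0.18 ± 0.15 in MKN7 cells (edgeR, adjusted p = 0.324, and 0.0463 with the replicate block). POLR2C, which nucleates the assembly of Pol II with POLR2J, went from 103, 97.5 and 117 to 66.3, 65.9 and 86.6 CPM, a log2FC of -0.54 ± 0.13. POLR2B, the second largest subunit, had -0.53 ± 0.07 in N87 and -0.21 ± 0.07 in MKN7 cells. POLR2I and POLR2J had -0.49 and -0.40 in N87 cells and passed with the replicate block (edgeR, adjusted p = 0.00100 and 0.00208) but not without it.

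Pol III held the member that fell furthest and, in its copy, one of the 2 members that rose. At 24 h 8 of its 9 tested subunits fell and 1 rose in both N87 and MKN7 cells, with medians of -0.86 and -0.33 over the 9. Of all genes 31.0% and 25.0% fell in these lines, and 31.5% and 26.6% rose. POLR3G (ENSG00000113356, chromosome 5 from 90471748 to 90514553 on the plus strand of GRCh38) was at 30.8, 38.0 and 46.4 CPM in untreated N87 libraries at 24 h and at 5.54, 6.01 and 7.24 CPM with afatinib. The lowest untreated library lay above all treated ones, and the log2FC was -2.61 ± 0.15 (edgeR, adjusted p = 4.56e-12). POLR3GL (ENSG00000121851, chromosome 1 from 145964702 to 145978848 on the plus strand) was at 5.42, 4.49 and 4.83 CPM untreated and 8.94, 7.49 and 10.1 CPM with afatinib. All its treated libraries were above the untreated ones, with a log2FC of 0.84 ± 0.19 (edgeR, adjusted p = 0.000661).

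The ratio of POLR3G to POLR3GL, each per kb of exon, was 2.54, 3.79 and 4.29 in the untreated N87 libraries at 24 h and 0.277, 0.360 and 0.323 with afatinib, so the order of both copies turned over. At 4 h the ratio was 4.44, 3.91 and 3.94 untreated and 1.66, 1.84 and 1.62 with afatinib, when POLR3G had fallen (-1.20 ± 0.14) and POLR3GL was at 0.07. In MKN7 cells at 24 h the ratio was 1.77, 2.34 and 4.36 untreated and 0.383, 0.465 and 0.735 with afatinib. There POLR3G was at 18.0, 22.9 and 32.6 CPM untreated and 5.87, 8.11 and 9.76 CPM treated, with a log2FC of -1.63 ± 0.21, and POLR3GL had 0.75 ± 0.15. The POLR3G levels of the untreated MKN7 libraries ranged more widely at 24 h than at 4 h, yet its groups overlapped at neither time. The ratio also fell without a drug in MKN1 cells, from 3.01, 1.74 and 2.40 at 4 h to 0.839, 0.645 and 1.03 at 24 h. After 24 h of afatinib it was 0.364, 0.295 and 0.293 there. In untreated Hs746T cells at 24 h it was 0.423, 0.565 and 0.515. The level of POLR3GL is uncertain because of its overlap, and so is the order of both copies.

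**Figure D4:**
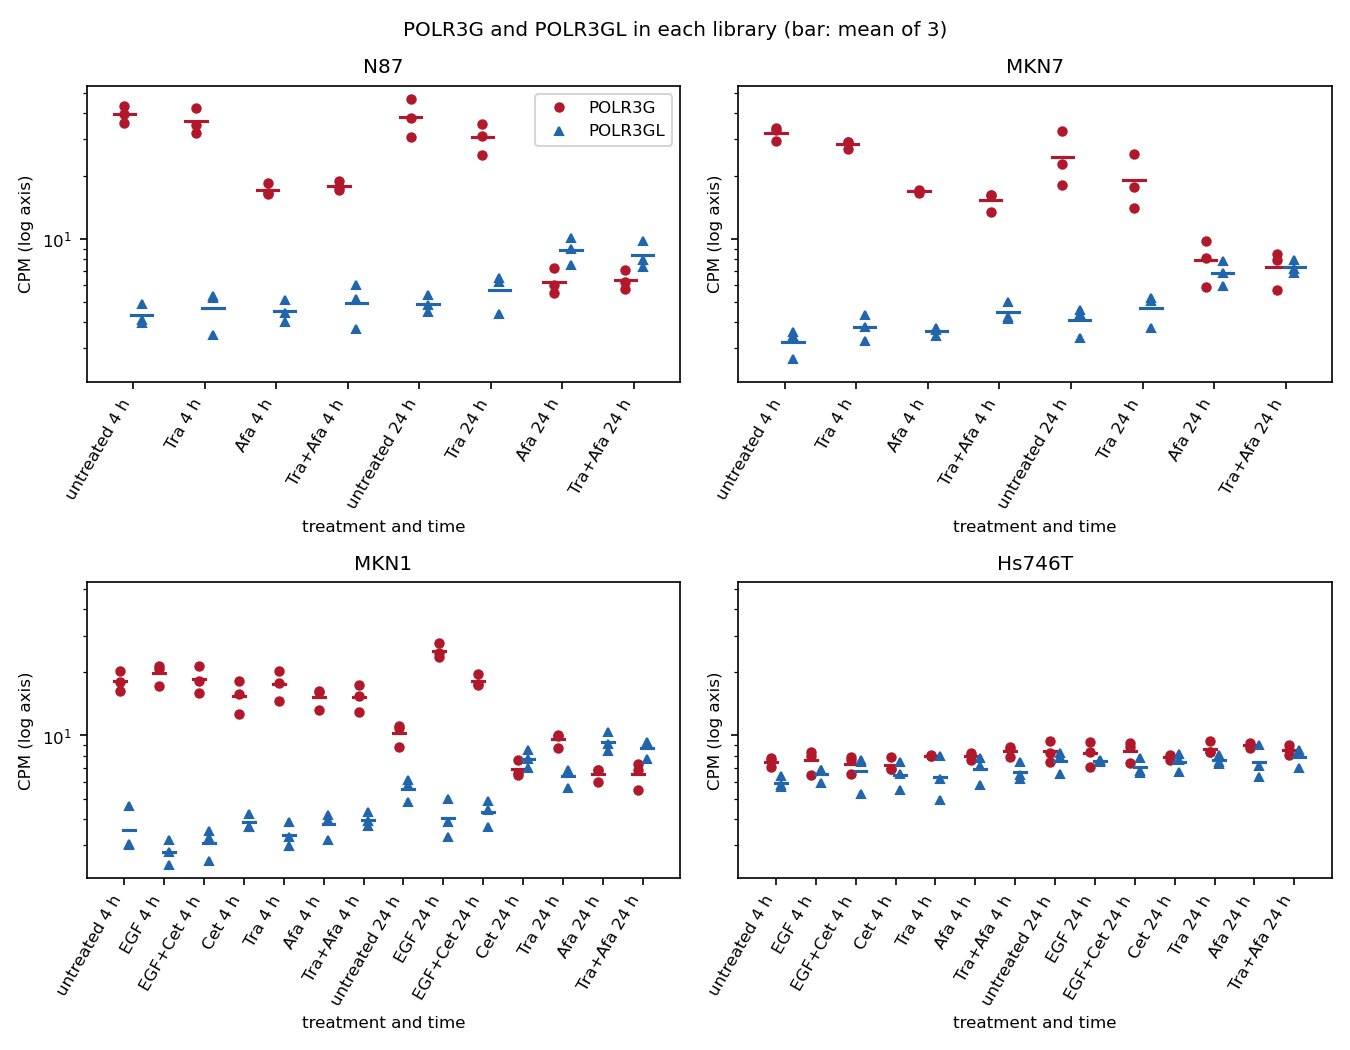
CPM of POLR3G (circles) and POLR3GL (triangles) in each library on a log axis, by treatment and time in the 4 cell lines, with a bar at the mean of 3. POLR3G lies above POLR3GL in untreated N87 and MKN7 cells and below it in each N87 library after 24 h of afatinib, while in Hs746T cells both stay between 4.94 and 9.44 CPM in every group.

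Among the other Pol III subunits, POLR3K, which cleaves and ends transcripts, fell furthest. It was at 31.2, 31.1 and 34.6 CPM untreated and 7.40, 7.99 and 8.70 CPM with afatinib in N87 cells at 24 h, a log2FC of -2.01 ± 0.19 with no overlap. In MKN7 cells it was at 22.0, 18.7 and 32.4 and 10.3, 8.59 and 12.6 CPM, a log2FC of -1.21 ± 0.19. POLR3E, a subunit of the dimer with POLR3D, had -1.04 ± 0.07 in N87 cells at 24 h after -0.51 ± 0.07 at 4 h. POLR3D had -1.01 ± 0.08 after -0.79 ± 0.08, and in MKN7 cells it was called further down at 4 h (-0.82 ± 0.08) than at 24 h (-0.35 ± 0.08). POLR3A, the largest subunit, was at 68.3, 75.5 and 70.4 CPM untreated and 37.9, 40.2 and 39.6 CPM with afatinib in N87 cells, and its groups lay apart with a log2FC of -0.86 ± 0.08. It was at 38.1, 36.6 and 38.8 and 31.8, 31.8 and 28.9 CPM in MKN7 cells, with -0.29 ± 0.06. POLR3B, POLR3C and POLR3F, the second largest subunit and partners of POLR3G in initiation, fell at 24 h in both lines, with log2FC between -0.70 and -0.30.

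The Pol I factors split by gene. UBTF, which binds along the ribosomal DNA, was at 16.2, 17.0 and 17.8 CPM untreated and 14.4, 15.1 and 14.8 CPM with afatinib in N87 cells at 24 h. Its groups did not overlap, but they were close together, with a log2FC of -0.20 ± 0.10 (edgeR, adjusted p = 0.101, and 0.0166 with the replicate block). With the block it was also called lower in N87 cells at 4 h (-0.19, adjusted p = 0.0467 in edgeR). UBTF did not pass in MKN7 cells, with 12.8, 11.7 and 12.4 CPM untreated, 11.8, 11.3 and 11.1 CPM treated and a log2FC of -0.11 ± 0.09. TAF1A of the selectivity factor fell at both times in N87, MKN7 and MKN1 cells. In N87 cells it was at 15.9, 19.0 and 18.8 CPM untreated and 7.98, 9.14 and 8.91 CPM treated at 24 h (-1.04 ± 0.12), and in MKN7 cells it had -0.82 ± 0.12 at 4 h and -0.47 ± 0.12 at 24 h. TAF1B fell at 24 h in the same 3 lines, with log2FC of -0.80, -0.32 and -0.24. TAF1C had 0.12 in N87 cells and did not pass there, while it fell in MKN7 cells (-0.26). TAF1D had -0.42 in N87 cells at 24 h and -0.34 in MKN7 cells at 4 h, both called. It did not pass in MKN7 cells at 24 h (edgeR, adjusted p = 0.197, and 0.0164 with the replicate block). It was also called lower in N87 cells at 4 h with the block (-0.37, adjusted p = 0.000138 in edgeR).

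**Figure D5:**
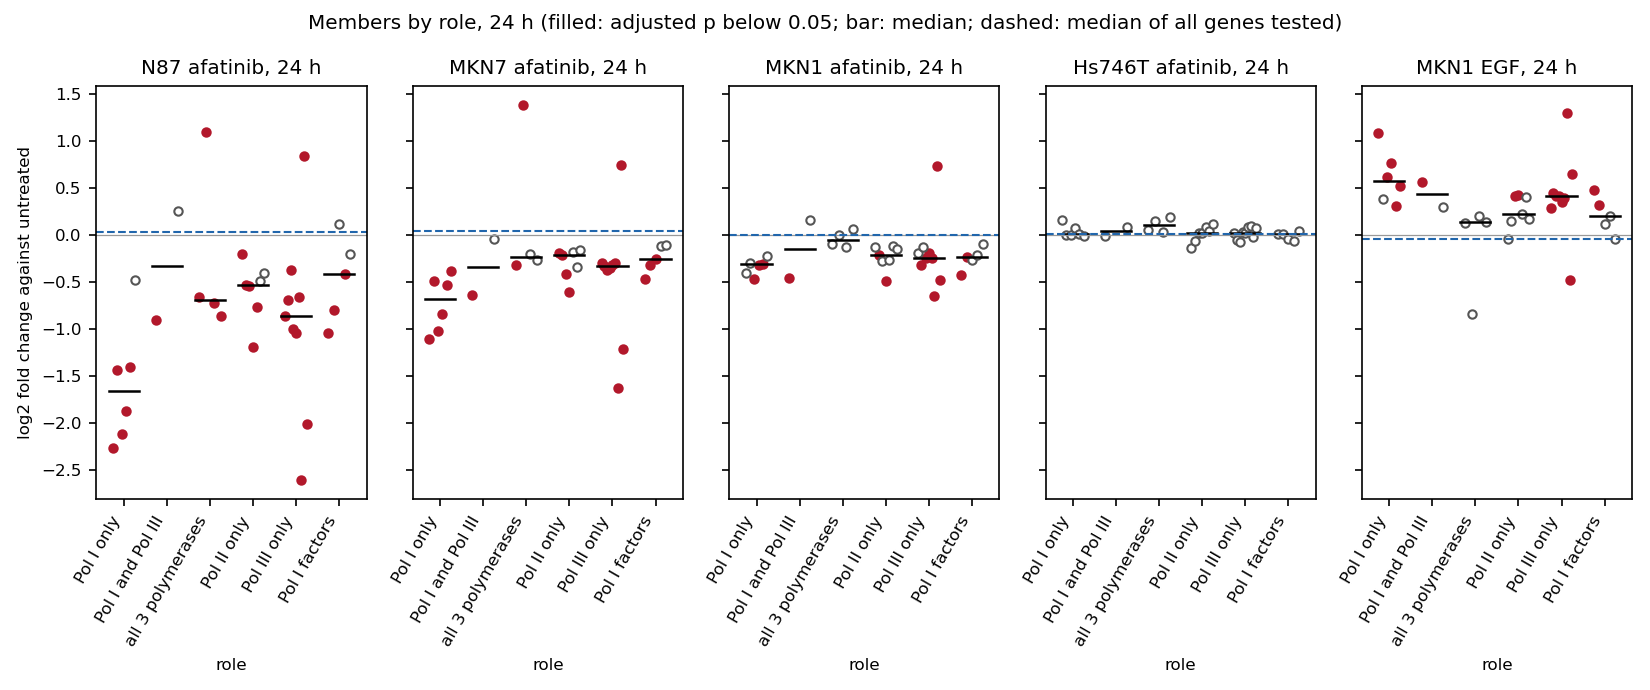
Log2FC of each member tested after 24 h of afatinib in the 4 lines and of EGF in MKN1 cells, by role, with filled points for an adjusted p below 0.05, a bar at the median of the role and a dashed line at the median of all genes tested. The subunits of Pol I alone had the lowest median in N87 (-1.66) and MKN7 cells (-0.68), and all points of Hs746T cells are open.

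In MKN1 cells the changes after afatinib were smaller. TWISTNB (-0.31 ± 0.09), POLR3D (-0.28 ± 0.07) and TAF1A (-0.36 ± 0.07) were called lower at 4 h, and 8 members were with the replicate block (7.63% of all genes), among them CD3EAP (-0.55, adjusted p = 1.79e-05 in edgeR) and POLR1B (-0.22, 0.0199). Without replicate 1 or 2 the count at 4 h was 1, and without replicate 3 it was 0. At 24 h POLR1B was at 127, 122 and 152 CPM untreated and 103, 94.4 and 91.0 CPM with afatinib, with no overlap and a log2FC of -0.47 ± 0.08. POLR3G was at 10.8, 8.83 and 11.1 and 6.85, 6.87 and 5.98 CPM (-0.64 ± 0.14), and POLR3GL at 5.78, 6.13 and 4.83 and 8.42, 10.4 and 9.12 CPM. POLR3GL rose with no overlap (0.74 ± 0.16), a call that was lost without replicate 3 (0.67). The log2FC of POLR1A was -0.29 ± 0.16, of CD3EAP -0.41 ± 0.20, of POLR3A -0.19 ± 0.08 and of POLR2A -0.12 ± 0.12, none of which passed in the fit without the block, while adjusted p was 0.00281, 0.00109, 0.00312 and 0.0432 with it. UBTF had -0.09 ± 0.08. The count of 14 members lower at 24 h was 22 with the replicate block (22% of all genes), 6 without replicate 1, 20 without replicate 2 and 3 without replicate 3, and 7 with scaling by library size alone.

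In Hs746T cells 0 members passed edgeR's test after afatinib at 4 h or at 24 h, and 0% of all genes did in either direction. At an unadjusted p below 0.05 there were 6 members at 4 h and 0 at 24 h, and DESeq2 called 0 at both. POLR1B was at 48.5, 45.4 and 44.6 CPM untreated and 47.2, 45.6 and 45.8 CPM after 24 h of afatinib, and POLR3G at 7.46, 8.29 and 9.44 and 8.92, 9.23 and 8.73 CPM. Both genes' groups overlapped. With the replicate block 11 members were called higher and 2 lower at 4 h, where 10.3% of all genes were higher and 8.29% lower, and 0 members were called at 24 h (0.171% and 0.541%). Those higher at 4 h included POLR2L (0.51), POLR2J (0.49) and POLR2K (0.44), and those lower were POLR1A (-0.27) and POLR3A (-0.10). EGF, cetuximab and EGF + cetuximab also called 0 members in Hs746T cells at either time, again with 0% of all genes, and 1 member (EGF at 4 h) stood at an unadjusted p below 0.05.

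The difference in the effect of afatinib between lines was tested at 24 h with interaction contrasts. Between N87 and MKN7 cells 13 members differed, all with a deeper fall in N87 cells, where 21.4% of all genes differed. These were led by CD3EAP (-1.13 ± 0.22), POLR1B (-1.07 ± 0.12) and POLR1E (-1.02 ± 0.14). Against MKN1 cells 17 differed (28.0% of all genes) and against Hs746T cells 24 (35.1%), in both led by POLR3G with -1.95 ± 0.22 and -2.68 ± 0.22. MKN7 cells differed from MKN1 cells in 5 members (7.61%) and from Hs746T cells in 16 (18.8%), and MKN1 from Hs746T cells in 5 (4.41%). POLR3GL did not pass between the 3 lines in which it rose. With the replicate block the counts were 22 for N87 against MKN7 (38.3% of all genes), 26 for N87 against MKN1 (44.5%), 8 for MKN7 against MKN1 (25.6%) and 18 for MKN1 against Hs746T cells (21.4%). The 8 members are 24.2% of the 33, near the share of all genes. With scaling by library size alone the counts were 9 for MKN7 and 2 for MKN1 against Hs746T cells. The POLR2F difference between MKN7 and MKN1 cells (1.38) rests on levels below 1 CPM.

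The effect in N87 cells grew from 4 h to 24 h. There 17 members had a lower log2FC at 24 h than at 4 h and POLR3GL a higher one, by an interaction test. Of all genes 20.5% had a lower log2FC and 15.3% a higher one by that test. POLR3G (-1.42 ± 0.20), POLR3K (-1.38 ± 0.25) and POLR1A (-1.17 ± 0.14) led. In MKN7 cells 2 members passed, both with a higher log2FC at 24 h (18.0% of all genes), namely POLR3D (0.47 ± 0.12) and POLR2F (1.56 ± 0.53), and with the replicate block there were 13, or 39.4% of the members beside 36.7% of all genes. In MKN1 cells 0 members passed (2.77% of all genes), with 4 at an unadjusted p below 0.05 and 6 with the block (18.2% of the members beside 15.7% of all genes), and in Hs746T cells 0 passed (0%), with 0 at an unadjusted p below 0.05.

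Trastuzumab alone called 0 members in edgeR in any of the 4 lines at 4 h or 24 h, and 0% of all genes in each. At an unadjusted p below 0.05 there were 3 members in N87 cells at 24 h, 2 in Hs746T cells at 4 h and 0 in the other 6 comparisons, and with the replicate block 1 member, POLR3G in MKN7 cells at 24 h, was called lower (-0.36), beside 0.335% of all genes.

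Afatinib was also given on top of trastuzumab. The trastuzumab libraries also entered the comparisons just above, and all libraries of a line shared the same fit, so these results are not independent of those above. Against trastuzumab alone, 13 members fell in N87 cells at 4 h (19.7% of all genes changed in either direction), and 29 fell and 2 rose at 24 h (61.8%). POLR3G was at 25.3, 31.2 and 35.4 CPM with trastuzumab and 6.22, 5.76 and 7.08 CPM with both, a log2FC of -2.27 ± 0.15 with no overlap, and POLR3GL and POLR2F were the members that rose (0.55 and 1.04). POLR1A was at 208, 248 and 203 and 88.7, 96.3 and 81.6 CPM (-1.31 ± 0.10). In MKN7 cells 13 fell at 4 h (10.6% of all genes fell and 9.93% rose), and 19 fell and POLR3GL rose at 24 h (21.6% and 22.8%). POLR1B had a log2FC of -0.82 ± 0.10 and POLR3G of -1.37 ± 0.21 at 24 h. In MKN1 cells TAF1A fell at 4 h (-0.31 ± 0.07) as the single member called (3.08% of all genes, and with the replicate block 6 members and 10.9% of all genes), and 16 fell and POLR3GL rose at 24 h (27.9%). POLR3K led with -0.80 ± 0.18. In Hs746T cells 0 members passed at either time, with 0% of all genes and 0 members at an unadjusted p below 0.05.

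EGF moved the members the other way in MKN1 cells, and mostly by 24 h. At 4 h 2 members rose, CD3EAP (0.71 ± 0.18) and TAF1A (0.34 ± 0.07), where 4.37% of all genes rose and 2.45% fell, and with the replicate block 4 did, beside 9.82% of all genes. Without replicate 1 or 2, CD3EAP lost its call at 4 h (0.65 and 0.77). At 24 h 18 members rose and 1 fell, where 17.3% of all genes rose and 18.5% fell. The 18 held 5 of 6 subunits of Pol I alone, 8 of 9 of Pol III alone, 2 of 7 of Pol II alone, POLR1C, TAF1A and TAF1B. The median log2FC over the members was 0.35 against -0.05 over all genes. Scaling by library size alone moved these to 0.15 and -0.24 (at 4 h from 0.06 and 0.00 to -0.05 and -0.11) and the split from 18 higher and 1 lower to 12 higher and 3 lower. The count of 18 was 11 without replicate 1, 24 without replicate 2 and 16 without replicate 3.

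POLR3G and CD3EAP led after 24 h of EGF, and both were past a log2FC of 1, as were 2.11% of all genes in this direction. POLR3G was at 10.8, 8.83 and 11.1 CPM untreated, 27.6, 24.6 and 23.6 with EGF, 19.7, 17.6 and 17.5 with EGF + cetuximab and 6.61, 7.63 and 6.48 with cetuximab. No pair of these 4 groups overlapped, and the log2FC of EGF was 1.30 ± 0.14 (edgeR, adjusted p = 1.54e-08). CD3EAP was at 2.704, 2.43 and 2.43 CPM untreated and 6.31, 5.52 and 4.29 CPM with EGF, with no overlap and a log2FC of 1.09 ± 0.19. POLR1E had 0.77 ± 0.09, POLR3K 0.65 ± 0.18 and POLR1B 0.62 ± 0.08. POLR1B was at 214, 193 and 209 CPM with EGF, above all 3 untreated libraries. POLR3GL was the member that fell, from 5.78, 6.13 and 4.83 to 3.28, 4.96 and 3.84 CPM, with overlapping groups (-0.47 ± 0.16), and its call was lost without replicate 1 (-0.32) or 3 (-0.55). POLR2A (-0.04 ± 0.12) and UBTF (-0.04 ± 0.08) did not pass the test, nor did POLR1A (0.39 ± 0.16; adjusted p = 0.0559 in edgeR, and 0.000113 with the replicate block). The EGF, cetuximab and afatinib comparisons of MKN1 cells share their untreated libraries, so their opposite signs are not independent of each other.

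Cetuximab without added EGF lowered a few members in MKN1 cells. At 4 h TAF1A was called (-0.25 ± 0.07), where 1.15% of all genes fell and 0.288% rose, and with the replicate block 5 members were (4.71% of all genes). That call was lost without any one of the replicates (-0.24 to -0.27). At 24 h 6 fell and POLR3GL rose, where 5.91% of all genes fell and 4.92% rose. POLR3G had -0.57 ± 0.14, POLR1C -0.49 ± 0.14, POLR1E -0.34 ± 0.09, TAF1A -0.32 ± 0.07, POLR1B -0.26 ± 0.08 and POLR3F -0.26 ± 0.09. POLR3GL was at 7.74, 7.01 and 8.53 CPM with cetuximab, all above the untreated libraries (0.47 ± 0.16), but its call was lost without replicate 1 (0.50) or 3 (0.30). The count of 6 was 17 with the replicate block (15.7% of all genes), 1 without replicate 1, 9 without replicate 2, 0 without replicate 3 and 3 with scaling by library size alone. Replicate 2 of cetuximab at 24 h held the lowest POLR2E level of its group, against the highest in 5 of the other 6 groups of that time, so that the meaning of its number for the block and for leaving out a replicate is in doubt. POLR2E was chosen after its values were seen. Over all genes, deviations of same-numbered cetuximab and untreated libraries correlated with r = 0.191, 0.183 and 0.186. When EGF + cetuximab was compared with EGF, 0 members passed edgeR's test at 4 h (0.621% of all genes fell and 0.0807% rose) or at 24 h (0.434% and 0.212%). At an unadjusted p below 0.05 there were 0 and 5 members, DESeq2 called 0 and 2, and with the replicate block 1 and 5 were called lower (2.97% and 3.66% of all genes), among the latter POLR3G (-0.47, adjusted p = 0.000136 in edgeR).

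Genes around the polymerases were counted in the same fits. Of the Pol III factors, which bring Pol III to its genes, 9 of 16 tested fell and 1 rose in N87 cells after 24 h of afatinib, where 31.0% of all genes fell, and BDP1 had -0.87 and SNAPC4 -0.73. Of the general factors of Pol II 14 of 22 fell, led by GTF2H2 (-1.09), and of the genes for polymerase assembly 7 of 11 fell, led by GPN3 (-1.35). Mitochondrial transcription, which has a polymerase of its own, had 5 of 6 genes lower, with TFAM at -1.40 and POLRMT at -1.07. In MKN7 cells at 24 h, where 25.0% of all genes fell, the counts for the same lists were 9 of 16 lower and 1 higher, 9 of 22, 8 of 11 and 5 of 6. In MKN1 cells, where 13.3% of all genes fell, they were 2 of 16, 7 of 22, 5 of 11 and 3 of 6, so that the Pol III factors were at the share of all genes. After 24 h of EGF in MKN1 cells, where 17.3% of all genes rose, 6 of 16 Pol III factors, 14 of 22 general factors of Pol II, 5 of 11 assembly genes and 3 of 6 mitochondrial genes rose.

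MYC, a known activator of Pol I and Pol III genes, was at 386, 428 and 445 CPM in untreated N87 libraries and 95.2, 91.8 and 104 CPM after 4 h of afatinib. It fell at both times in N87 (-2.11 ± 0.14 and -1.99 ± 0.14), MKN7 (-1.86 ± 0.11 and -1.44 ± 0.11) and MKN1 cells (-1.81 ± 0.23 and -1.34 ± 0.24). In Hs746T cells it stayed between 156 and 255 CPM in all libraries. In MKN1 cells EGF raised it at both times (1.32 ± 0.23 and 1.34 ± 0.23). Of the regulators, RBL1 had -2.02 and RBL2 1.03 in N87 cells at 24 h. The part of MYC in the changes of the members was not tested.

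Genes of S phase, the part of the cell cycle in which DNA is copied, moved with the members at 24 h. Their sum over 12 genes was 2525 to 2752 CPM in untreated N87 libraries and 392 to 502 CPM with afatinib at 24 h, and all 12 fell with a median of -2.80. It was 2146 to 2414 and 1143 to 1530 CPM in MKN7 cells (12 of 12 lower), 1753 to 1913 and 1221 to 1491 CPM in MKN1 cells (11 lower), 2107 to 2298 CPM after 24 h of EGF in MKN1 cells (8 higher), and 2681 to 3786 CPM in all Hs746T libraries. Of all genes 31.0%, 25.0% and 13.3% fell after 24 h of afatinib in N87, MKN7 and MKN1 cells, and 17.3% rose after 24 h of EGF. At 4 h of afatinib 2 of the 12 genes fell in N87 cells, 0 in MKN7 and 0 in MKN1 cells. Of the 33 members tested 13, 14 and 3 fell at that time, and of all genes 9.10%, 12.1% and 2.41%. In N87 cells at 24 h the epithelial markers KRT18 (-1.87), KRT8 (-1.37) and EPCAM (-0.80) fell too. They are 3 of the 5 genes on that list, and the log2FC of the others are not given here. The sum over the list was 18370 to 21439 CPM untreated and 9622 to 11873 CPM treated. That sum was also lower without overlap in N87 cells at 4 h (18361 to 20333 and 14432 to 17059 CPM) and in MKN7 cells at 4 h (5838 to 6772 and 4911 to 5712 CPM) and 24 h (5683 to 6658 and 4079 to 4858 CPM). In MKN1 cells it was lower without overlap at 4 h (19367 to 21366 and 17550 to 18373 CPM) but not at 24 h (16768 to 17959 and 14528 to 17675 CPM). In N87 cells at 24 h 3 of the 5 tested markers of endothelial cells and fibroblasts rose within sums of 14.6 to 30.1 CPM. The part of cell division or of other cells in the changes of the members was not tested.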

How the data were processed

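RNA was sequenced from 4 cell lines in 44 groups of 3 replicates. The authors purified mRNA, made directional libraries and deposited raw counts per Ensembl identifier. Per the labels, Trim Galore, STAR and hg38 were used, while versions, the counting tool, its annotation and its strand setting are not given in the sources used here. Identifiers were matched to GENCODE 29, which lacks 8404 of 65217 (0.0422% of counts). Depth was 25832557 to 69434151 counts, so 3 counts are 0.0432 to 0.116 CPM.

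Each line was fitted alone in R 4.3.3 with edgeR 4.0.16 (TMM, filterByExpr with a minimum count of 10 and total of 15, glmQLFit, glmQLFTest, 1 mean per treatment and time), over 19078 genes in N87, 18483 in MKN7, 19815 in MKN1 and 18667 in Hs746T cells. Differences between lines came from 1 fit of all libraries (22832 genes). Members were called at a Benjamini-Hochberg adjusted p below 0.05 over all genes tested. Log2FC are given ± SE. CPM were TMM normalized within a line, and across lines where levels are per kb of exon. The code was tested on simulated data. No 2 libraries of a group agreed within sampling noise (squared differences at least 6.35 times the Poisson expectation). The study's methods speak of independent experiments for its in vitro data as a whole and the labels number the replicates, so p-values measure the spread between these libraries, part of which may be technical.

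Replicate numbers come from the labels. Deviations of same-numbered libraries correlated above 0.1 in all 3 pairs in 35 of 36 comparisons (r from -0.01 to 0.74). The exception was trastuzumab + afatinib against trastuzumab in MKN1 cells at 24 h. Numbers thus paired libraries in most comparisons, yet counts, SEs and figures come from the fit without the block unless said otherwise. The fit with the replicate number as a block is given for some of the counts and members whose call it changes. The other alternatives were library size alone, no filter, 10 counts in every library, leaving out each replicate, only the groups compared and DESeq2 1.42.0.

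The members, lists and tests were chosen with earlier results of these data known. The study itself lists RNA polymerase among the pathways enriched in NCI-N87 cells after 24 h of afatinib. Values in every library are given for at most the 3 members with the largest absolute log2FC among those called per role, and for POLR3G, POLR3GL, POLR1A, POLR1B, POLR2A, POLR3A and UBTF. Of other lists, at most 3 genes are named. Promoters are from RefSeq (GRCh38.p14), and those printed are members with an E-box. Plots were made by matplotlib 3.10.9 under Python 3.11.15. Protein sequences, phosphoproteins and motility were not analysed here.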

Additional observations from a re-analysis of the deposited data

Results flagged for a closer look

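The effect of afatinib at 24 h differed between cell lines, by interaction contrasts in edgeR. It did so for 13 members between N87 and MKN7 (21.4% of all genes), 17 between N87 and MKN1 (28.0%) and 24 between N87 and Hs746T cells (35.1%). There were 5 between MKN7 and MKN1 (7.61%), 16 between MKN7 and Hs746T (18.8%) and 5 between MKN1 and Hs746T cells (4.41%). Within a line, the effect at 24 h differed from that at 4 h for 18 members in N87 cells (35.8% of all genes). In MKN7 cells it did so for 2, which are 6.06% of the members tested beside 18.0% of all genes. Groups of 3 libraries were too small to test for a single library that stands apart.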

How the results depend on the processing

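Under the alternatives 1754 log2FC were followed. These were the log2FC called in edgeR without an alternative, and all those of POLR3G, POLR3GL, POLR1A, POLR1B, POLR2A, POLR3A and UBTF. Of these, 1549 kept their direction and their side of the threshold, 183 lost the call and 21 gained it. The remaining 1 turned: POLR2A in N87 cells after 24 h of afatinib had a log2FC of 0.056 with library size alone. Calls gained by other members are not in these numbers, so losses and gains cannot be weighed against each other. The cause of the changes below was not tested, unless fewer samples or genes entered by construction.

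With the replicate number as a block (pairing), members lower were 21 in N87 cells after 4 h of afatinib, 8 and 22 in MKN1 cells after 4 h and 24 h of afatinib, 5 and 17 after cetuximab, 1 and 5 for EGF + cetuximab against EGF, 2 after 24 h of EGF and 2 in Hs746T cells after 4 h of afatinib, and members higher were 4 in MKN1 cells after 4 h of EGF and 11 in Hs746T cells after 4 h of afatinib. Between lines the block gave 22 (N87, MKN7), 26 (N87, MKN1), 8 (MKN7, MKN1) and 18 (MKN1, Hs746T). For the other comparisons, a block chosen after seeing the data gave 1 member for trastuzumab in MKN7 cells at 24 h, 13 and 6 for the effect at 24 h against 4 h in MKN7 and MKN1 cells, and 6 and 28 for trastuzumab + afatinib against trastuzumab in MKN1 cells at 4 h and 24 h, where at 24 h the numbers did not pair the libraries. Members higher also went from 1 to 3 for the effect at 24 h against 4 h in N87 cells and from 0 to 2 between N87 and MKN7 cells. The block ended no call of a named member in the comparisons of afatinib, EGF or cetuximab with untreated cells, and it was not run for untreated cells across times or lines. In MKN1 cells at 24 h the levels of POLR2E and POLR2L put the numbering of the cetuximab libraries in doubt. Over all genes every r with the untreated libraries was above 0.1.

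The median log2FC over the members moved by more than the spread between replicates in 10 of 14 comparisons with library size alone and in 17 of 126 over all alternatives. With library size alone, members lower in MKN1 cells were 1 and 7 after afatinib at 4 h and 24 h, 0 and 3 after cetuximab and 3 after 24 h of EGF, members higher were 4 in N87 cells after 24 h of afatinib and 1 in MKN1 cells after 4 h of EGF, and 9 and 2 members differed between MKN7 or MKN1 and Hs746T cells. Without a filter, members lower in MKN1 cells were 1 and 8 after afatinib and 0 after 4 h of cetuximab, and 0 rose after 24 h of cetuximab. With 10 counts in every library, 1 member was higher in MKN7 cells after 24 h of afatinib. With only the groups compared, members lower in MKN1 cells were 0 and 4 after afatinib, 0 and 2 after cetuximab and 0 after 24 h of EGF, and members higher 0 after 4 h of EGF and 0 after 24 h of cetuximab. DESeq2 gave 6 lower after 4 h of afatinib, 2 after 4 h of cetuximab and 2 for EGF + cetuximab against EGF at 24 h.

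Leaving out each replicate in turn gave in MKN1 cells 0 to 1 (4 h) and 3 to 20 (24 h) members lower after afatinib, 0 to 1 and 0 to 9 after cetuximab and 0 to 1 after 24 h of EGF. Members higher were 1 to 2 and 11 to 24 after EGF at 4 h and 24 h, and 0 to 1 after 24 h of afatinib or cetuximab. In N87 cells it gave 9 to 15 and 19 to 25 members lower and in MKN7 cells 10 to 13 and 18 to 19. Depth limits POLR2F, CD3EAP and POLR3GL most.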

Other observations

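In MKN1 cells at 24 h, replicate 2 held the highest POLR2E level of its group in untreated cells (171, 213 and 184 CPM) and after EGF (184, 272 and 168), EGF + cetuximab (181, 224 and 175), trastuzumab (188, 225 and 176) and afatinib (160.0, 219 and 152). After cetuximab (179, 148 and 168 CPM) and trastuzumab + afatinib (158, 138 and 154 CPM) it held the lowest. POLR2L was at 156, 207 and 161 CPM untreated, at 187, 128 and 163 CPM with cetuximab and at 167, 129 and 155 CPM with trastuzumab + afatinib. These genes were chosen after their values were seen.

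The subunits called higher in Hs746T cells after 4 h of afatinib with the replicate block include POLR2L, POLR2J and POLR2K, whose exons span 1142, 1355 and 1711 bases. They also include POLR1D, POLR1C and POLR2E, whose exons span 11210, 5550 and 4865 bases. POLR1A and POLR3A, called lower, span 13519 and 8917. A part of length in these calls was not tested. At 24 h 0 members were called in these cells with the block.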
